A study of Homo sapiens with 6 samples.

Results

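Chemokines are small secreted proteins that bind receptors on the surface of white blood cells and steer their movement. CXCL8, CXCL1, CXCL2 and CXCL3 carry a glutamate-leucine-arginine motif ahead of the CXC cysteines, bind the receptor CXCR2, and recruit neutrophils. CXCL8 also binds CXCR1. CCL20 binds CCR6 and draws in certain T cells, B cells and immature dendritic cells, whereas CXCL16 is made as a membrane protein with a chemokine domain that binds CXCR6 and is released by the proteases ADAM10 and ADAM17. Carcinoma cells are known to transcribe several of these genes through NF-kB and AP-1, and their mRNAs are known to turn over quickly through AU-rich elements.

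The expression of these 6 chemokine genes was followed in the ovarian clear cell carcinoma cell line TOV21G, an established human line. They were picked by gene symbol from a table of 16910 genes, and all 6 were found and passed the filter on low counts that 13235 genes passed. The study asked what GYS1, the muscle-type glycogen synthase, and the tumour suppressor p53 do in these cells. RNA-seq was done on 2 libraries with GYS1 knocked down (siGYS1), 2 libraries with p53 knocked down (sip53) and 2 libraries labelled NC with a wild-type genotype, read here as the control siRNA. The 3 groups share the cell line and carry no other label of genotype or treatment. The labels give neither the siRNA sequences nor the time after transfection. They do not say whether the 2 libraries of a group came from separate cultures, so each p-value measures the spread between these libraries only, which may be technical.

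The read counts of a library summed to between 17425000 and 18097337. GYS1 stood at 1.68 ± 0.014 FPKM (fragments per kilobase of transcript, scaled to library depth; mean ± SD, n = 2) with siGYS1, 30.9 ± 0.714 with sip53 and 27.9 ± 0.926 with NC, so the siGYS1 label fits its target (log2 fold change -3.99 against NC, SE 0.11, edgeR adjusted p = 1.28e-07). Of 10 epithelial and clear cell carcinoma markers, 8 had a mean above 1 FPKM, and NAPSA and MUC16 did not. The neutrophil markers CSF3R and MPO were at or near 0 in every library (at most 0.05 and 0.02 FPKM). Of 12 neutrophil and myeloid markers, 7 were measured and 1, CD68, had a mean above 1 FPKM. The summed level of that list was 5.89 to 6.22 FPKM with siGYS1, 7.25 to 8.49 with sip53 and 5.28 to 5.73 with NC. The epithelial and clear cell list summed to 492 to 553 FPKM with siGYS1, 529 to 540 with sip53 and 661 to 677 with NC. A list of 7 fibroblast markers, carried by the collagen genes COL1A2 and COL1A1, summed to 145 to 155 FPKM with siGYS1, 92.3 to 92.8 with sip53 and 176 to 177 with NC. On that list COL3A1, LUM, PDGFRB and FAP stayed at or below 0.29 FPKM in every library. DCN stood at 0.24 and 0.33 FPKM with siGYS1, 4.47 and 3.12 with sip53, and 0.31 and 6.97 with NC. The part of these differences in the chemokine results was not tested.

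CXCL8, CXCL1, CXCL3 and CXCL2 lie in 1 cluster on chromosome 4 (GRCh38, GENCODE 29). CXCL8 covers chr4:73740506-73743716 and CXCL1 covers chr4:73869393-73871242, both on the plus strand. CXCL3 covers chr4:74036589-74038807 and CXCL2 covers chr4:74097035-74099293, both on the minus strand. CCL20 lies on the plus strand of chromosome 2 (chr2:227805739-227817564) and CXCL16 on the minus strand of chromosome 17 (chr17:4733526-4739922).

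The start of 5 of the genes is shown because CXCL1, CXCL2 and CXCL3 are near copies of each other there and CXCL8 and CCL20 are not. CXCL16 had no entry among the RefSeq promoter windows used, so its start was neither shown nor searched. Each sequence runs 5′ to 3′ on the strand of the gene, from 140 bases before the RefSeq transcription start through 10 bases from it, and was taken from RefSeq (GRCh38.p14). Capitals mark matches on either strand to the NF-kB-like word GGAANNNCC and to the AP-1-like word TGANTCA. The windows are chr4:73740429-73740578 (plus strand) for CXCL8, chr4:73869253-73869402 (plus) for CXCL1, chr4:74099186-74099335 (minus) for CXCL2, chr4:74038680-74038829 (minus) for CXCL3 and chr2:227813702-227813851 (plus) for CCL20.
CXCL8: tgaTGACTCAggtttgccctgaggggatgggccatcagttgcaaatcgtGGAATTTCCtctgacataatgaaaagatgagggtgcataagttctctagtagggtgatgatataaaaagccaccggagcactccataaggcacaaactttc
CXCL1: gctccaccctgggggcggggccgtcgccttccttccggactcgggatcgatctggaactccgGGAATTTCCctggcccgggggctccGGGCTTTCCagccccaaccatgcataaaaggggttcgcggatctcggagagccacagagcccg
CXCL2: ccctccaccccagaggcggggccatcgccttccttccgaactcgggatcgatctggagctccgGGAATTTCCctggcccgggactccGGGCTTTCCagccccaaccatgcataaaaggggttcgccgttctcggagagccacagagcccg
CXCL3: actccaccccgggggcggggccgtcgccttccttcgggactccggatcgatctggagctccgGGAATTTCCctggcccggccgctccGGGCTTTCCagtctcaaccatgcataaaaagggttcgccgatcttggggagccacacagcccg
CCL20: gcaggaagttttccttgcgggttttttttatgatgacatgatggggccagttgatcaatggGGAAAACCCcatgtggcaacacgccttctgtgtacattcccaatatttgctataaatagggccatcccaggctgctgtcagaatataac

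The word GGAATTTCC begins 91 bases before the start of CXCL8, 78 before CXCL1, 77 before CXCL2 and 78 before CXCL3. CXCL1, CXCL2 and CXCL3 hold a further match, GGGCTTTCC, which begins 53 bases before the start and matches on the opposite strand. CCL20 holds GGAAAACCC, 79 bases before its start. TGACTCA stands 137 bases before the start of CXCL8 and in none of the other 4 windows. The 2 words do not share bases in any window. Over the full RefSeq promoter windows of 300 bases, GGAANNNCC occurs in 5498 of 27305 promoters (20.1%) and TGANTCA in 2120 (7.8%). A match is a description of these letters and not of binding.

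In an alignment of the 300-base windows, CXCL1 and CXCL3 were identical at 82.5% of positions, CXCL2 and CXCL3 at 73.7% and CXCL1 and CXCL2 at 69.8%. Every pair that includes CXCL8 or CCL20 was identical at 43.1% to 47.4%. The coding sequences of CXCL2 and CXCL3 were identical at 94.4% of positions, CXCL1 and CXCL2 at 93.5% and CXCL1 and CXCL3 at 90.7%. Of the 50-base stretches of each transcribed gene, 5.7% of CXCL1, 9.2% of CXCL2 and 5.3% of CXCL3 also occur in another gene. No 100-base stretch of the 6 genes does. The labels do not state the read length. Reads that could come from more than 1 of CXCL1, CXCL2 and CXCL3 may have been counted to either, so small differences between these 3 genes are uncertain to that degree.

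The neutrophil chemokine genes did not move together. CXCL8 and CXCL2 rose in both knockdowns. CXCL3 fell in both, and CXCL1 fell with sip53 and did not pass the test with siGYS1. CCL20 rose in both knockdowns. CXCL16 fell with sip53 and did not pass with siGYS1. Because these are bulk libraries, a change in the share of cells that make a transcript and a change in its amount per cell cannot be told apart. Both knockdowns are set against the same 2 NC libraries.

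**Figure D1:**
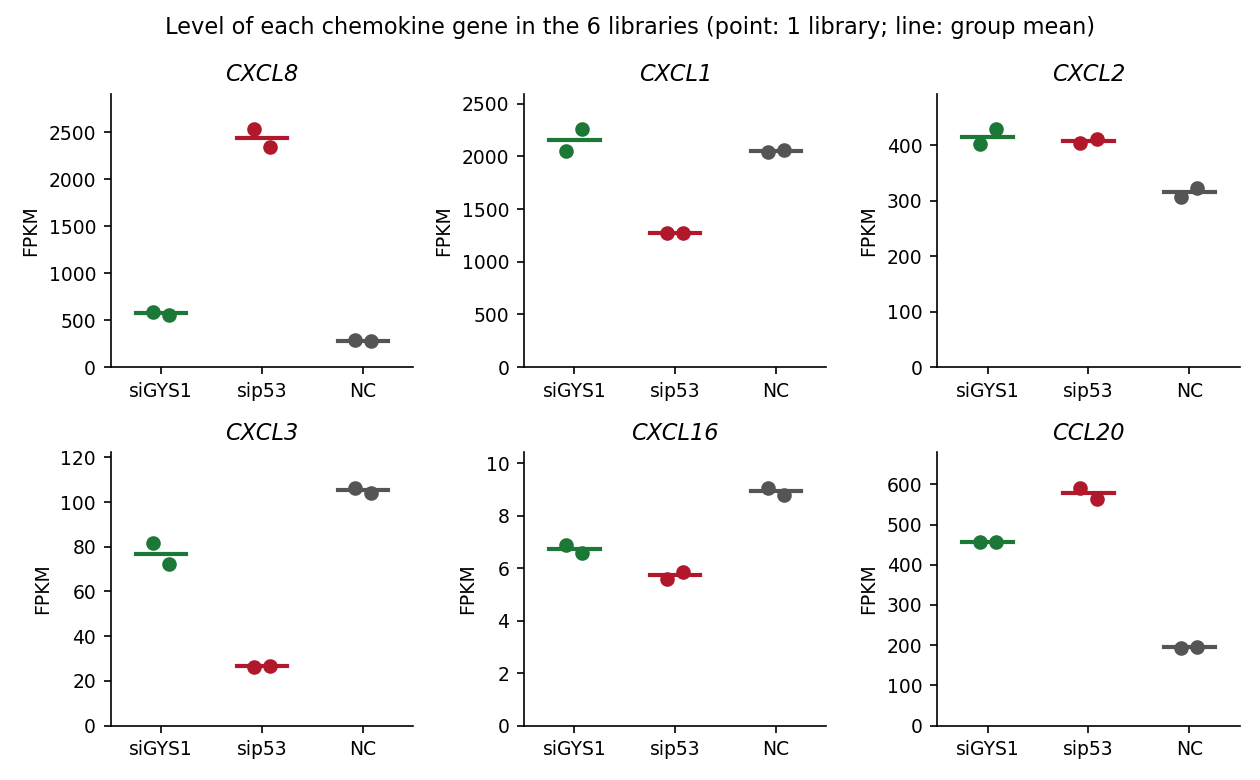
FPKM of each of the 6 chemokine genes (y axis, from 0, a separate scale per gene) in siGYS1, sip53 and NC libraries; points are single libraries and lines are the means of 2. CXCL8 stands highest with sip53 (2532 and 2344 FPKM), CXCL3 lowest with sip53 (26.3 and 26.8), and the siGYS1 and sip53 points of CXCL2 share 1 range.

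With siGYS1, 3 of the 6 genes rose and 1 fell against NC (edgeR quasi-likelihood test, Benjamini-Hochberg adjusted p below 0.05). Of all 13235 tested genes 19.7% passed, 10.4% higher and 9.24% lower. With sip53, 3 rose and 3 fell, where 49.9% of tested genes passed, 23.4% higher and 26.5% lower. Between siGYS1 and sip53, 2 were higher and 2 lower, where 43.4% of tested genes passed, 22.5% higher and 20.9% lower. The median log2 fold change of the 6 genes was 0.305 with siGYS1 and -0.00888 with sip53 against NC, beside -0.00893 and -0.0291 over all tested genes. The sip53 median near 0 lies between 3 rises and 3 falls. Overlap was judged on counts divided by the library total, without TMM scaling. The 2 groups did not overlap for 6 of the 6 genes with siGYS1 against NC, where 59.5% of tested genes did not overlap. They did not overlap for 6 with sip53 against NC (78.9% of tested genes) and for 5 between siGYS1 and sip53 (72.1%).

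**Figure D2:**
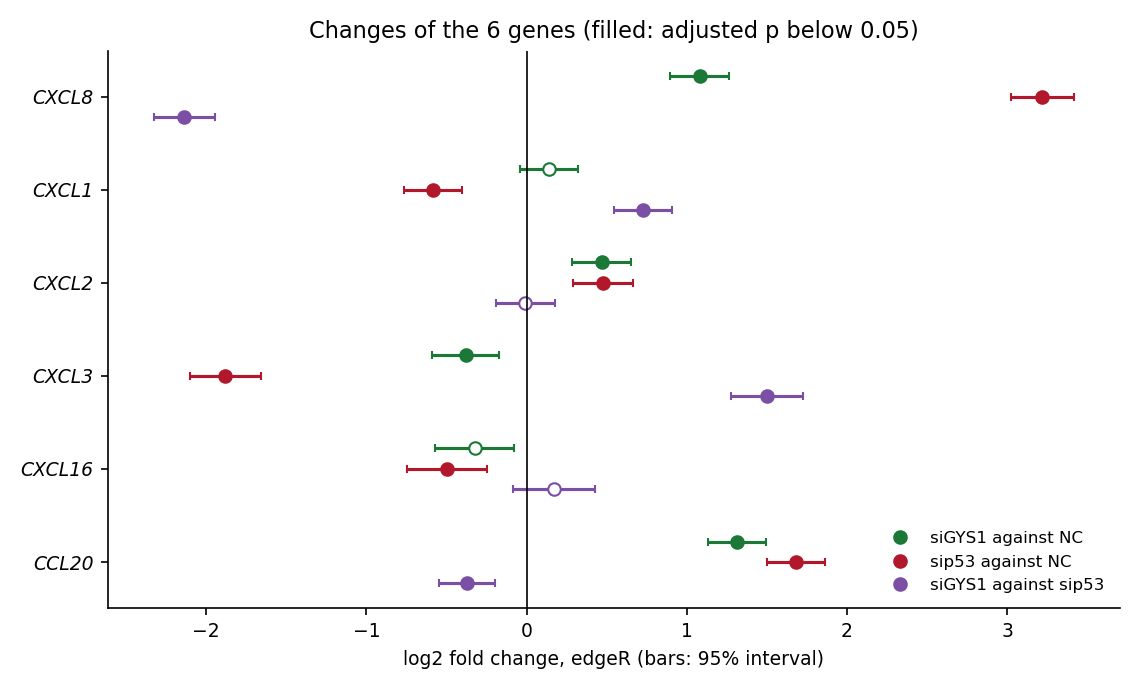
Log2 fold change of each gene (x axis, edgeR) in siGYS1 against NC, sip53 against NC and siGYS1 against sip53, with 95% intervals as bars; filled points passed at an adjusted p below 0.05. The sip53 changes reach 3.22 for CXCL8 and -1.88 for CXCL3, and the open points are CXCL1 and CXCL16 in siGYS1 against NC and CXCL2 and CXCL16 in siGYS1 against sip53.

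CXCL8, interleukin-8, is the best-known human attractant of neutrophils. It was at 589 and 554 FPKM in the siGYS1 libraries, 2532 and 2344 FPKM in the sip53 libraries, and 289 and 276 FPKM in the NC libraries. Every siGYS1 library lay above both NC libraries, every sip53 library lay above all others, and no groups overlapped. CXCL8 rose 2.12-fold with siGYS1 (log2 fold change 1.08, SE 0.08, adjusted p = 6.41e-05) and 9.31-fold with sip53 (log2 fold change 3.22, SE 0.09, adjusted p = 5.02e-08). By log2 fold change the sip53 rise is number 66 of 13235 tested genes. Set directly against each other, siGYS1 was lower than sip53 by a log2 fold change of -2.14 (SE 0.08, adjusted p = 5.89e-07), which is 22.8% of the sip53 level. In the order of all genes by TPM (transcript share per length, scaled to the same total in each library), CXCL8 held places 158 and 185 with siGYS1, 29 and 32 with sip53, and 308 and 360 with NC. With any 1 library left out, its log2 fold change stayed between 1.04 and 1.14 with siGYS1 and between 3.17 and 3.27 with sip53.

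CXCL1, also known as GRO-alpha, attracts neutrophils through CXCR2. It was at 2049 and 2258 FPKM with siGYS1, 1271 and 1271 FPKM with sip53, and 2042 and 2061 FPKM with NC. The sip53 libraries lay below all others, and by FPKM 1 siGYS1 library lay inside the NC range. CXCL1 fell with sip53 to 66.7% of the NC level (log2 fold change -0.58, SE 0.08, adjusted p = 0.000282). With siGYS1 it did not pass (log2 fold change 0.14, SE 0.08, 95% interval -0.04 to 0.32, adjusted p = 0.240). It was 1.65-fold higher with siGYS1 than with sip53 (log2 fold change 0.73, SE 0.08, adjusted p = 9.50e-05). CXCL1 was thus the gene of this group with the highest level per length in siGYS1 and NC cells, but not in sip53 cells, where CXCL8 was higher.

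CXCL2, or GRO-beta, is a near copy of CXCL1. Its level was 401 and 429 FPKM with siGYS1, 404 and 412 FPKM with sip53, and 307 and 324 FPKM with NC. Both knockdowns lay above NC and overlapped each other. CXCL2 rose 1.38-fold with siGYS1 (log2 fold change 0.47, SE 0.08, adjusted p = 0.00473) and 1.39-fold with sip53 (0.48, SE 0.08, adjusted p = 0.00107). Between siGYS1 and sip53 the log2 fold change was -0.01 (SE 0.08, adjusted p = 0.940), with a 95% interval from -0.19 to 0.18 that bounds the difference.

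CXCL3, or GRO-gamma, is the member of the GRO group with the lowest level. It was at 81.7 and 72.1 FPKM with siGYS1, 26.3 and 26.8 FPKM with sip53, and 106 and 104 FPKM with NC. The groups did not overlap, and the sip53 libraries were lowest. CXCL3 fell with sip53 to 27.2% of the NC level (log2 fold change -1.88, SE 0.10, adjusted p = 9.72e-07), number 235 of 13235 tested genes in order of fall. With siGYS1 it fell to 76.8% (log2 fold change -0.38, SE 0.09, adjusted p = 0.0202). It was 2.83-fold higher with siGYS1 than with sip53 (log2 fold change 1.50, SE 0.10, adjusted p = 4.81e-06). The siGYS1 call was lost when 1 library of another group was left out: at a log2 fold change of -0.37 (adjusted p = 0.0843) without NC replicate 1, -0.39 (adjusted p = 0.0975) without NC replicate 2, and -0.38 (adjusted p = 0.0616 and 0.0607) without each of the sip53 libraries. Its direction stayed.

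Gene length moved with 2 libraries, and the chemokine transcripts are short. CPM here is the count per library total, TMM-scaled. Across 11187 genes the deviation of log2 CPM from the mean of the libraries followed transcript length with Spearman's rho 0.543 in siGYS1 replicate 1 and -0.393 in NC replicate 2, against -0.0849 to 0.042 in the other 4 libraries. Genes are not independent replicates, so these values carry no p. The lengths implied by the deposited values run from 553 bases for CCL20 to 1895 for CXCL16. With offsets corrected for length, CXCL1 passed with siGYS1 (log2 fold change 0.27, adjusted p = 0.00168) and CXCL3 did not (-0.24, adjusted p = 0.102), while CXCL8, CXCL2 and CCL20 stood at 1.18, 0.60 and 1.46 and passed. The sip53 calls of all 6 genes were unchanged by that correction.

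The make-up of the chemokine transcripts differed between the groups. By TPM, which is per length, CXCL1 gave 57.2% and 59.8% of the sum over the 6 genes with siGYS1, 26.3% and 27.5% with sip53, and 69.3% and 69.4% with NC. CXCL8 gave 16.4% and 14.7% with siGYS1, 52.4% and 50.7% with sip53, and 9.80% and 9.29% with NC. The ratio of CXCL8 to CXCL1 was therefore 0.287 and 0.245 with siGYS1, 1.99 and 1.84 with sip53, and 0.141 and 0.134 with NC, with no overlap between groups. The ratio of CXCL3 to CXCL2 was 0.203 and 0.168 with siGYS1, 0.0650 and 0.0651 with sip53, and 0.346 and 0.322 with NC. These 2 transcripts, the most alike in coding sequence, thus differed more in level in both knockdowns than with NC. The 6 genes together summed to 4942 and 4854 TPM with siGYS1, 6246 and 5987 TPM with sip53, and 3884 and 3641 TPM with NC, or from 0.364% to 0.625% of all transcripts.

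**Figure D3:**
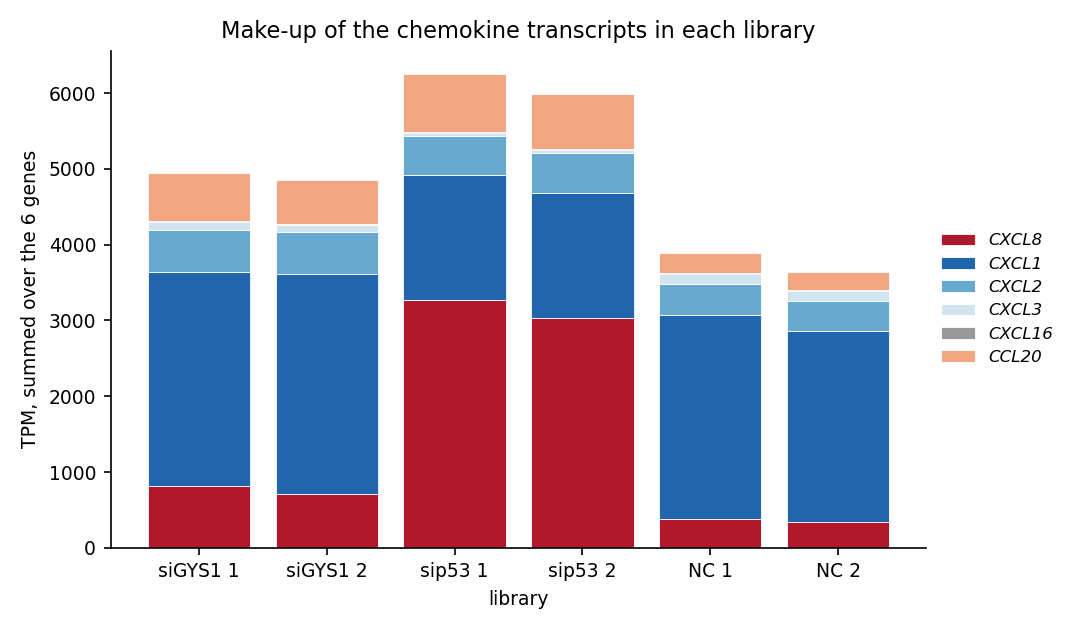
TPM of the 6 genes stacked in each of the 6 libraries (y axis, from 0). CXCL1 is the largest block in siGYS1 and NC libraries and CXCL8 the largest in sip53 libraries, and the stacks reach 4942 and 4854 TPM with siGYS1, 6246 and 5987 with sip53, and 3884 and 3641 with NC.

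Within each group the order of levels per length was clear of the replicate spread. In siGYS1 cells it ran CXCL1, CXCL8, CCL20, CXCL2, CXCL3, CXCL16. In sip53 cells it ran CXCL8, CXCL1, CCL20, CXCL2, CXCL3, CXCL16, and in NC cells CXCL1, CXCL2, CXCL8, CCL20, CXCL3, CXCL16. No neighbours in these orders overlapped between the 2 libraries of a group. Neighbours with small gaps were CCL20 and CXCL2 with siGYS1, at 456 and 457 FPKM for CCL20 beside 401 and 429 FPKM for CXCL2, and CXCL2 and CXCL8 with NC, at 307 and 324 FPKM for CXCL2 beside 289 and 276 FPKM for CXCL8.

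CCL20, also called MIP-3-alpha, is the ligand of CCR6. Its level was 456 and 457 FPKM with siGYS1, 592 and 563 FPKM with sip53, and 193 and 196 FPKM with NC. All 4 knockdown libraries lay well above NC, and the sip53 libraries lay above the siGYS1 libraries. CCL20 rose 2.48-fold with siGYS1 (log2 fold change 1.31, SE 0.08, adjusted p = 3.46e-05), the largest estimate among the 6, and 3.21-fold with sip53 (1.68, SE 0.08, adjusted p = 6.95e-07). With siGYS1 it was at 77.4% of the sip53 level (log2 fold change -0.37, SE 0.08, adjusted p = 0.00407), a call lost without sip53 replicate 1 (-0.35, adjusted p = 0.0576). The receptor gene CCR6 was at 0.04 FPKM with siGYS1, 0.02 with sip53 and 0.02 with NC, too low to be tested. CXCR1 and CXCR2 were not analysed here.

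CXCL16 was the gene of the 6 with the lowest level. It was at 6.88 and 6.60 FPKM with siGYS1, 5.58 and 5.87 FPKM with sip53, and 9.07 and 8.80 FPKM with NC, from 192 to 302 reads a library. All knockdown libraries lay below both NC libraries. CXCL16 fell with sip53 to 70.9% of the NC level (log2 fold change -0.50, SE 0.11, adjusted p = 0.00472). With siGYS1 it did not pass (log2 fold change -0.32, SE 0.11, 95% interval -0.57 to -0.08, adjusted p = 0.0670), and the difference between siGYS1 and sip53 did not pass either (0.17, SE 0.11, 95% interval -0.08 to 0.43, adjusted p = 0.248). Its receptor gene CXCR6 stayed below 1 FPKM, at 0.12 with siGYS1, 0.275 with sip53 and 0.095 with NC.

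The proteases that shed CXCL16 moved in opposite directions with sip53. ADAM10 averaged 200 FPKM with siGYS1, 63.2 with sip53 and 156 with NC, and fell with sip53 (log2 fold change -1.30, SE 0.11, adjusted p = 1.34e-05). ADAM17 averaged 18.5 FPKM with siGYS1, 33.0 with sip53 and 16.8 with NC, and rose with sip53 (1.08, SE 0.11, adjusted p = 4.65e-05). Neither passed with siGYS1 (0.21, adjusted p = 0.183, and 0.19, adjusted p = 0.266), although ADAM10 did without siGYS1 replicate 2 (0.36, adjusted p = 0.0118).

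The 359 kb from CXCL8 to CXCL2 hold 16 annotated genes, of which 9 are protein-coding and 6 were tested. In genome order these are CXCL8, CXCL6, CXCL1, CXCL5, CXCL3 and CXCL2. CXCL6 and CXCL5, which are named here for their place in the cluster, also encode neutrophil attractants. Their log2 fold changes with sip53 were 3.22, -0.58, -0.58, -0.98, -1.88 and 0.48 in that order, all past the test (49.9% of tested genes). Rises thus stood at both ends of the cluster and falls between them. With siGYS1 the values were 1.08, 0.01, 0.14, 0.57, -0.38 and 0.47, of which CXCL6 and CXCL1 did not pass.

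**Figure D4:**
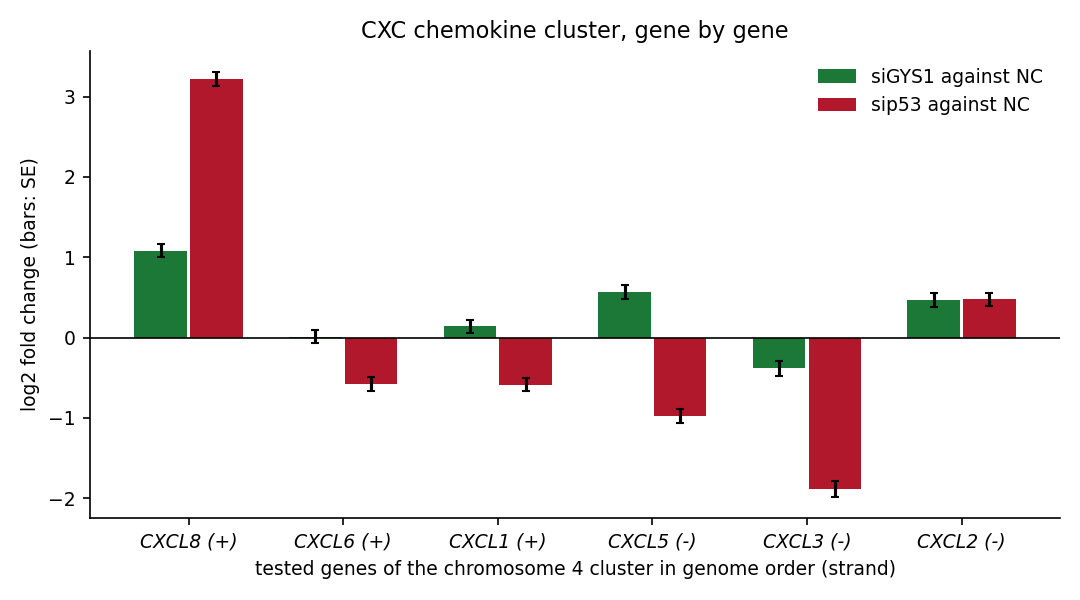
Log2 fold change against NC (y axis, edgeR, bars are SE) for siGYS1 and sip53 at the 6 tested genes of the chromosome 4 cluster, in genome order with the strand in brackets. With sip53 CXCL8 (3.22) and CXCL2 (0.48) at the ends are above 0 and the 4 genes between them are below 0.

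CXCL5 had the higher level of these 2 neighbours. It averaged 1119 FPKM with siGYS1, 374 with sip53 and 789 with NC. It rose with siGYS1 (log2 fold change 0.57, SE 0.09, adjusted p = 0.00255) and fell with sip53 (-0.98, SE 0.09, adjusted p = 2.05e-05), and was 2.91-fold higher with siGYS1 than with sip53 (adjusted p = 2.15e-06). CXCL6 averaged 121 FPKM with siGYS1, 78.1 with sip53 and 122 with NC, a pattern close to that of CXCL1.

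Of 40 further chemokine genes, 17 were in the table and 7 could be tested. With siGYS1 5 of the 7 rose and 1 fell, and with sip53 5 rose and 2 fell. These counts stand beside 19.7% (siGYS1) and 49.9% (sip53) of all tested genes that passed in either direction. The median log2 fold change of the 7 was 0.468 with siGYS1 and 0.628 with sip53. CCL5 (RANTES), a T cell and monocyte attractant, averaged 2.00 FPKM with siGYS1, 2.41 with sip53 and 0.45 with NC, and rose in both knockdowns (log2 fold change 2.11, SE 0.39, adjusted p = 0.00567 with siGYS1, and 2.36, SE 0.37, adjusted p = 0.000650 with sip53). CCL2 (MCP-1), which attracts monocytes, went in opposite directions. It averaged 8.68 FPKM with siGYS1, 26.2 with sip53 and 18.4 with NC, with log2 fold changes of -0.996 (SE 0.15, adjusted p = 0.00235) and 0.63 (SE 0.13, adjusted p = 0.00329). CX3CL1 (fractalkine), the other membrane-bound chemokine, averaged 7.29 FPKM with siGYS1, 12.7 with sip53 and 5.56 with NC and rose with sip53 by a log2 fold change of 1.29 (SE 0.11, adjusted p = 1.72e-05). Its rise with siGYS1 (0.45, SE 0.12, adjusted p = 0.0241) was lost without NC replicate 1 (0.33, adjusted p = 0.141) and without each of the sip53 libraries (0.45, adjusted p = 0.0609 and 0.0599). CXCL12, the ligand of CXCR4, rose with siGYS1 (1.44, SE 0.18, adjusted p = 0.000979) and with sip53 (0.82, SE 0.19, adjusted p = 0.00590), the sip53 call being lost without sip53 replicate 1 (0.68, adjusted p = 0.0577). Among 4 tested chemokine receptor genes, with medians of -0.193 with siGYS1 and -0.107 with sip53, CXCR4 rose with sip53 (1.61, SE 0.13, adjusted p = 1.06e-05) and was at 0.04 with siGYS1 (adjusted p = 0.870). CCR10, the receptor of CCL28, fell with siGYS1 (-2.62, SE 0.15, adjusted p = 2.33e-05).

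Cytokines that are known to induce these chemokines were few in the table above the filter. Of 10 listed, 3 were tested, and all 3 rose with sip53, where 23.4% of all tested genes rose. IL1A, the alarmin interleukin-1 alpha, averaged 0.44 FPKM with siGYS1, 3.12 with sip53 and 0.405 with NC (log2 fold change 3.04 with sip53, SE 0.27, adjusted p = 1.88e-05). TNFSF15 averaged 0.13, 3.03 and 0.125 FPKM in siGYS1, sip53 and NC cells (4.64 with sip53, SE 0.21, adjusted p = 4.39e-07), and IL18 rose with sip53 by 0.60 (SE 0.09, adjusted p = 0.000439). With siGYS1 0 of the 3 passed in edgeR and 0 with DESeq2, and 1 had an unadjusted p below 0.05, IL18 (0.23, adjusted p = 0.0965), which passed with offsets corrected for length (0.36, adjusted p = 0.00172).

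The receptor and adaptor genes that carry interleukin-1, Toll-like and TNF signals to NF-kB went both ways. Of 26, 2 rose and 2 fell with siGYS1, and 7 rose and 5 fell with sip53, beside 19.7% and 49.9% of all tested genes that passed in either direction. Their median log2 fold changes were -0.0423 with siGYS1 and 0.0644 with sip53. IRAK2, a kinase of the interleukin-1 receptor complex, averaged 3.81 FPKM with siGYS1, 19.9 with sip53 and 2.04 with NC. It rose with siGYS1 (log2 fold change 0.96, SE 0.14, adjusted p = 0.00196) and with sip53 (3.38, SE 0.13, adjusted p = 1.44e-07), the same order over groups as CXCL8. IL1RAP, the accessory chain of that receptor, rose with siGYS1 (1.06, SE 0.12, adjusted p = 0.000569) and fell with sip53 (-0.81, SE 0.13, adjusted p = 0.000573). IRAK1 did the reverse (-0.80, SE 0.10, adjusted p = 0.000730 with siGYS1 and 0.72, SE 0.09, adjusted p = 0.000201 with sip53). The adaptor MYD88 fell with siGYS1 (-0.49, SE 0.09, adjusted p = 0.00464). The counts move with single libraries: without siGYS1 replicate 2, 6 rose and 5 fell with siGYS1, and with offsets corrected for length 2 rose and 7 fell. With sip53, 4 rose and 3 fell without sip53 replicate 1 or NC replicate 2, and 4 rose and 2 fell without sip53 replicate 2.

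Of 14 genes of NF-kB subunits and their feedback inhibitors, 2 rose with siGYS1 (median 0.144). With siGYS1 0 fell in edgeR, at an unadjusted p below 0.05 or with DESeq2. With sip53 8 rose and 1 fell (median 0.405). Over all tested genes, 19.7% passed in either direction with siGYS1 and 49.9% with sip53. TNFAIP3 (A20), an NF-kB-induced inhibitor of the pathway, averaged 16.4 FPKM with siGYS1, 33.7 with sip53 and 10.3 with NC, and rose in both (log2 fold change 0.69, SE 0.10, adjusted p = 0.00220 with siGYS1, and 1.79, SE 0.10, adjusted p = 1.39e-06 with sip53). BIRC3, an NF-kB-induced inhibitor of apoptosis, rose in both as well (0.80, SE 0.12, adjusted p = 0.00272 with siGYS1, and 0.57, SE 0.12, adjusted p = 0.00399 with sip53). With sip53 the subunit RELA rose by 0.59 (SE 0.09, adjusted p = 0.000442) and NFKBIZ, a nuclear cofactor that is needed for part of the NF-kB targets, was the 1 that fell (-0.90, SE 0.11, adjusted p = 0.000141). CYLD rose with sip53 by 0.995 (SE 0.12, edgeR adjusted p = 0.000147). The siGYS1 count of 2 is 5 without siGYS1 replicate 1 and 4 without siGYS1 replicate 2.

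AP-1 and C/EBP factors, which act with NF-kB at the CXCL8 promoter in other cells, went both ways, with more rises than falls. Of 11 tested, 6 rose and 1 fell with siGYS1, and 7 rose and 3 fell with sip53, with medians of 0.353 and 0.757. Over all tested genes, 10.4% rose and 9.24% fell with siGYS1, and 23.4% rose and 26.5% fell with sip53. CEBPB averaged 13.2 FPKM with siGYS1, 28.8 with sip53 and 10.3 with NC and rose with sip53 by 1.59 (SE 0.11, adjusted p = 4.26e-06). Its rise with siGYS1 (0.42, SE 0.11, adjusted p = 0.0299) was lost with the DESeq2 Wald test (adjusted p = 0.0518) and without siGYS1 replicate 2 (0.29, adjusted p = 0.0832), either sip53 library (0.42, adjusted p = 0.0698 and 0.0689) or either NC library (0.42, adjusted p = 0.103 and 0.143). ATF3 rose by 1.10 (SE 0.21, adjusted p = 0.00761) with siGYS1 and by 1.61 (SE 0.21, adjusted p = 0.000173) with sip53, and FOSL1 by 0.68 (SE 0.10, adjusted p = 0.00158) with siGYS1 and by 1.20 (SE 0.09, adjusted p = 9.81e-06) with sip53. FOS fell in both (-0.63, SE 0.15, adjusted p = 0.0185 with siGYS1, and -1.38, SE 0.16, adjusted p = 9.94e-05 with sip53). The other rises with sip53 were FOSB (1.62), JUN (1.09), JUNB (0.76) and FOSL2 (0.40). JUND and CEBPD, named here to complete the falls, also fell with sip53. JUND averaged 64.9 FPKM with siGYS1, 27.7 with sip53 and 71.1 with NC (-1.34 with sip53, SE 0.13, adjusted p = 3.34e-05). CEBPD averaged 119 FPKM with siGYS1, 71.4 with sip53 and 130 with NC (-0.75 with sip53, SE 0.11, adjusted p = 0.000335). The siGYS1 call of FOS was lost without siGYS1 replicate 1 (-0.53, adjusted p = 0.0601), NC replicate 1 (-0.59, adjusted p = 0.0757) or NC replicate 2 (-0.66, adjusted p = 0.0766), and with the DESeq2 Wald test (-0.61, adjusted p = 0.101). The 6 rises with siGYS1 are 3 without either NC or either sip53 library and 4 without siGYS1 replicate 2, where 2 fell.

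**Figure D5:**
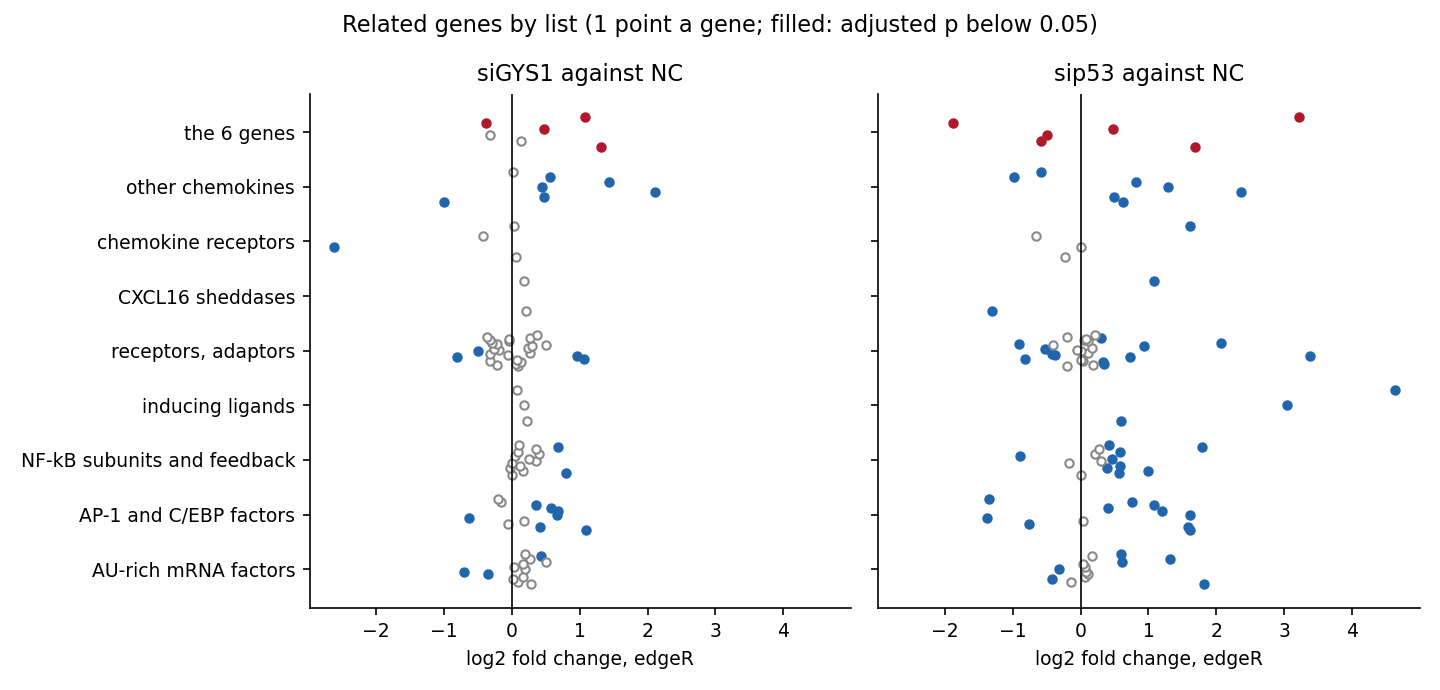
Log2 fold change (x axis, edgeR) of each tested gene of the listed gene groups in siGYS1 against NC and in sip53 against NC; each point is a gene (red for the 6 chemokine genes), filled where it passed at an adjusted p below 0.05. With sip53 the values reach 4.64 for TNFSF15. Of the 3 ligand genes all 3 passed with sip53 and 0 with siGYS1, beside 49.9% and 19.7% of all tested genes.

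The 3′ UTRs of 5 of the 6 genes are dense in the AU-rich word ATTTA (GENCODE 29, sense strand). It occurs 9 times in CXCL8, 5 in CXCL1, 10 in CXCL2, 7 in CXCL3, 3 in CCL20 and 1 in CXCL16. Per kilobase this is 7.19, 7.08, 13.87, 10.4, 6.65 and 1.02, against a median of 1.51 over 12857 tested genes. A density as high as that of CXCL2 is found in 0.6% of those genes, as high as that of CXCL8 in 3.5%, and as high as that of CXCL16 in 58.2%. The longer word TTATTTATT stands 5 times in CXCL2, 3 in CXCL1, 1 in CXCL8 and 1 in CXCL3, and 8.1% of genes hold it. CXCL8 and CXCL2, which rose in both knockdowns, and CXCL3, which fell in both, each hold both words. CCL20, which rose in both, and CXCL16, which fell with sip53, do not hold TTATTTATT. The part of these words in the changes was not tested.

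Of 13 genes for factors that bind or regulate such AU-rich transcripts, 1 rose and 2 fell with siGYS1, and 4 rose and 2 fell with sip53, with medians of 0.172 and 0.0826. These counts stand beside 19.7% and 49.9% of all tested genes. ZFP36 (tristetraprolin), which speeds their decay, averaged 2.19 FPKM with siGYS1, 4.26 with sip53 and 1.83 with NC and rose with sip53 (log2 fold change 1.31, SE 0.23, adjusted p = 0.00126). DUSP1, a phosphatase that switches off p38, averaged 12.0 FPKM with siGYS1, 33.7 with sip53 and 10.3 with NC and rose with sip53 (1.81, SE 0.12, adjusted p = 4.20e-06). MAPKAPK2, the kinase that inhibits tristetraprolin, fell with siGYS1 (-0.70, SE 0.09, adjusted p = 0.000950). The rise of ZFP36L1 with siGYS1 (0.43, SE 0.09, adjusted p = 0.00785) was lost with limma on log2(FPKM + 1) (0.47, adjusted p = 0.0995) and without NC replicate 2 (0.41, adjusted p = 0.0696), leaving no rise on the list there in edgeR, while 2 rose without siGYS1 replicate 1 and 3 without siGYS1 replicate 2. Falls on the list numbered 1 with siGYS1 without any single sip53 or NC library. With sip53 they numbered 0 without sip53 replicate 1 and 1 without sip53 replicate 2, NC replicate 1 or NC replicate 2.

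Across the 6 libraries the profiles of the 6 genes, taken as log2 CPM centred on the NC mean, were compared by Euclidean distance, where 0 is an identical profile. CXCL1 and CXCL16 were the closest pair (0.676) and CXCL8 and CXCL3 the farthest (7.49). This distance also depends on the size of the changes. The closest pair still differed in sign with siGYS1, at a log2 fold change of 0.14 for CXCL1 and -0.32 for CXCL16, neither of which passed. Among 11811 tested genes with a mean of at least 1 FPKM, the profiles nearest to CXCL8 were NDRG1 (distance 0.301) and PPIF (0.32). Those nearest to CXCL1 were TPM3 (0.0878) and HSPD1 (0.0939), to CXCL2 RAPGEFL1 (0.0938) and PCTP (0.0951), to CXCL3 SCIN (0.145) and ANKRD34B (0.147), to CXCL16 CTSC (0.0743) and ZMYM3 (0.0746), and to CCL20 PIP4K2A (0.288) and GREB1 (0.334). NDRG1 had log2 fold changes of 1.00 with siGYS1 and 3.05 with sip53, beside 1.08 and 3.22 for CXCL8. No other member of the 6 was among these nearest genes.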

How the data were processed

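The libraries were 2 each of TOV21G cells with siGYS1, sip53 and NC, grouped by their titles. Per the file headers the deposited table gives 4 values per library: a read count, its normalized form, TPM and FPKM. The read counts of the authors are estimated counts (expected counts), since 16.8% to 18.1% of the values of a library are not whole (tolerance 1e-09). The read counts of the 6 chemokine genes are whole. The normalized read count is a deposited signal that was used for a check only. Its median ratio to the read count, rounded up, lay between 0.944 and 1.03 per library over genes with higher counts. Whether that ratio was the same for every gene was not tested. The submitters' processing notes name, without roles, the aligners HISAT2, STAR and TopHat, the counters Salmon, featureCounts and HTSeq, the trimmers cutadapt and Trimmomatic, FastQC, edgeR, DESeq2 and the mouse build mm10. The identifiers are human, and 16830 of 16910 are in GENCODE 29. The tool behind the counts was not given in the sources used here, and neither was whether counting used strand, which leaves overlapping and antisense genes uncertain. The labels' protocols describe poly(A) enrichment in general terms.

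The counts, rounded to whole numbers, were fitted in edgeR 4.0.16 (R 4.3.3): filterByExpr (minimum count 10), TMM factors (0.967 to 1.04), glmQLFit and glmQLFTest, all 6 libraries in 1 fit with group as the term (3 residual degrees of freedom, common dispersion 0.00639). All adjusted p-values are Benjamini-Hochberg values over 13235 genes, and 3675 genes were filtered out. The SE is the log2 fold change over the square root of F. A gene counts as changed at an adjusted p below 0.05. Alternatives were RLE size factors, no filter, the DESeq2 1.42.0 Wald test, limma 3.58.1 on log2(FPKM + 1) or log2(FPKM + 0.1), counts rounded up, only the 4 libraries compared, length-corrected offsets, a replicate block and each library left out. With so few libraries the precision rests on the spread of each gene between them and on the spread shared over all genes (6.67 prior degrees of freedom).

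The 6 genes and all lists were chosen with earlier results of these data known. Named genes are the 6, GYS1, and genes picked per list and comparison. Eligible were up to 4 genes that passed, with the largest changes and a mean of at least 1 FPKM. Where none did, it was the gene with the smallest p. Not every eligible gene is given in the text, for example TICAM1, ZFP36L2, ZC3H12C and MAPK14. Others were given for their place in the cluster or to complete the rises or falls of a list. The 2 nearest profiles of each gene were named too. The level of the transcript targeted by sip53 is not reported here. Sequences came from RefSeq tables and GENCODE 29 and were searched and aligned in Python 3.11.15 with Biopython 1.88.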

Additional observations from a re-analysis of the deposited data

How the results depend on the processing

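Of the 6 genes, between 3 and 5 passed with siGYS1 against NC over 16 other settings (4 in the full fit), 6 with sip53 against NC in every setting, and 3 or 4 between siGYS1 and sip53. The left-out ranges are 3 to 4, 6 and 3 to 4. Of the values of these genes under other settings, 273 kept their direction and side of the threshold, 7 lost a call, 2 gained one and 6 changed sign. CXCL2 between siGYS1 and sip53, at -0.01 and never called, turned positive at 0.0246 with limma on log2(FPKM + 1), 0.0247 with a pseudocount of 0.1, 0.0246 without the filter, 0.0466 with length-corrected offsets, 0.0398 without siGYS1 replicate 1 and 0.0138 without sip53 replicate 2 (left-out range -0.0618 to 0.0398). The fall of CXCL3 with siGYS1 was also lost when only the 4 compared libraries were fitted (-0.38, adjusted p = 0.0604); the cause was not tested. CXCL16 with sip53 kept its call narrowly without sip53 replicate 1 (adjusted p = 0.04996). With limma on log2(FPKM + 1) without the filter, CXCL5 (0.50, adjusted p = 0.0501), ATF3 (0.78, adjusted p = 0.0786), FOS (-0.54, adjusted p = 0.0794) and ZFP36L1 (0.47, adjusted p = 0.241) lost their siGYS1 calls.

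Over all genes, 2602 passed with siGYS1, and leaving out 1 library gave 4260 (siGYS1 replicate 2), 1550 (sip53 replicate 1), 1571 (sip53 replicate 2), 1696 (NC replicate 1) and 926 (NC replicate 2). The count was 1577 with only 4 libraries, 941 with limma without the filter and 4097 with length-corrected offsets. With sip53, 6605 passed, and 4271 without sip53 replicate 1. Between siGYS1 and sip53, 5745 passed, and 3416 and 3485 without sip53 replicates 1 and 2. Of the genes called with siGYS1, 53% were higher, against 64.6% with DESeq2 and 36.2% with limma on FPKM; with sip53 it was 47% against 35.3% with limma on FPKM.

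The replicate numbers are shared by the groups, but the labels do not say that they pair the libraries, and 2 per group are too few to show it. Across 11187 genes the deviations of the replicate 1 libraries correlated at 0.265 (siGYS1 and sip53), 0.591 (siGYS1 and NC) and 0.118 (sip53 and NC). The siGYS1 and NC groups also hold the libraries with the length trends (rho 0.543 in siGYS1 replicate 1, -0.393 in NC replicate 2). The part of those trends in the 0.591 was not tested. With the replicate block 4662 genes passed with siGYS1, 7890 with sip53 and 7202 between them. Of the 6 genes, 5, 6 and 4 then passed. CXCL16 with siGYS1 was the call that changed among them (-0.32, adjusted p = 0.0305). Among the named list genes ADAM10 (0.21, adjusted p = 0.0307) and IL18 (0.23, adjusted p = 0.0267) passed with siGYS1 under the block.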
